A study of Mus musculus with 20 samples.

Results

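The transcripts described here encode the proteins of the cytosolic ribosome. They were chosen by gene symbol alone, as Rps or Rpl followed by a number, together with Rpsa, Rplp0, Rplp1 and Rplp2, and without the Rps6 kinase genes and rows named as pseudogenes by the suffix -ps. The rule found 83 of the 23284 genes in the tables, 33 of the small subunit and 50 of the large subunit, and all 83 passed the filter on low counts. The rule uses no measured value, but the family was chosen with earlier results of these data known. Genes of ribosomal proteins with other names (such as Fau and Gnb2l1, which encodes Rack1) were left out by the rule.

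The cytosolic ribosome translates mRNA into protein. Its small subunit holds the decoding site and its large subunit joins the amino acids, and most of its proteins are made in equal numbers of copies. Their mRNAs are short and among the most abundant of a growing cell. Most begin with a cytosine and a run of pyrimidines, the terminal oligopyrimidine (TOP) sequence, through which growth signals acting on mTOR set how many of these mRNAs are translated, and several of the genes carry small nucleolar RNAs (snoRNAs) in their introns.

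The data are RIP-Seq libraries, in which RNA recovered with an antibody (IP) was sequenced beside RNA that was not immunoprecipitated (input). All 20 libraries came from mouse embryonic stem cells (ESCs) of wild-type origin grown on gelatin in medium with serum and leukemia inhibitory factor, in which CRISPR editing had placed a Flag, HA and Twin-Strep tag at the C terminus of an endogenous Tet protein. Tet proteins oxidise methylated cytosine. The Tet1-KI line carried tagged Tet1 and gave 2 pairs of IP and input, the Tet2-KI line carried tagged Tet2 and gave 4, and the Tet2dRBD-KI line, here Tet2ΔRBD, carried tagged Tet2 without its RNA-binding domain (RBD) and gave 4. The lines were grown from picked clones, and how many clones stand behind each is not given in the sources used here. The IP was made with an anti-Flag antibody from cytoplasmic extract, whereas the methods give the input as total RNA, so the loss of nuclear RNA and the recovery by the antibody cannot be told apart in a ratio of IP to input. The labels name polyA RNA as the molecule of every library, and which RNA entered the libraries is not settled by these sources. Control reactions of the IP were not analysed here.

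Library totals lay between 21078995 and 37576638 expected counts. All 9 ESC marker genes had a mean input level of at least 10 TPM (a level scaled for transcript length and to 1 total in every library), from 31.3 TPM for Klf4 to 11000 TPM for Dppa5a, whereas 4 primitive endoderm markers summed to between 5.87 and 90.5 TPM in each input, 5 markers of primed cells or early germ layers to between 2.46 and 8.37 TPM, and 4 fibroblast markers to between 10.7 and 63.2 TPM. In the inputs Tet1, Tet2 and Tet3 had mean levels of 12.05, 5.90 and 1.36 TPM, and gene counts do not show the tag or the loss of the RBD. Replicate 2 of the Tet2 and Tet2ΔRBD lines stood apart from the other replicates. The numbering of the deposited data places it, like replicate 1, in a library set of its own. Its median ratio of IP to input over the 83 transcripts was the lowest of the 4 pairs in Tet2 and the highest in Tet2ΔRBD. Their share of TPM in its input was the lowest of the 4 inputs in both lines. Counts of calls and named transcripts that turn on replicate 2 are given with and without it. The labels do not say that replicates came from separate cultures, so p-values measure the spread between these libraries, which may be technical.

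The TOP sequence is the feature that these mRNAs are best known to share, so the start of 6 genes is shown. Each line holds 30 bases, 15 before and 15 from the start of the gene in RefSeq on, 5′ to 3′ on the gene's own strand, with the longest unbroken run of C and T in capitals. The capitals lie wholly before that start in Rpl4 and Rps27l and wholly after it in Rpl39. They are therefore not shown to be TOP sequences. Rpl4 had the highest ratio of IP to input and Rps28 the lowest in Tet1 and Tet2, Rpl15 had the lowest ratio in Tet2ΔRBD, and Rps27l, Rpl39 and Rplp2 were among the transcripts lower in IP.
Rpl4, GRCm38.p6 chr9:64173372-64173401, plus strand: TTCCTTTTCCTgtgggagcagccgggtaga
Rps28, GRCm38.p6 chr17:33824548-33824577, minus strand: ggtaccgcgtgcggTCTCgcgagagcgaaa
Rpl15, GRCm38.p6 chr14:18270972-18271001, minus strand: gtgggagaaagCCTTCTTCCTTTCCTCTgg
Rps27l, GRCm38.p6 chr9:66946071-66946100, plus strand: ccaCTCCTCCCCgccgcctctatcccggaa
Rpl39, GRCm38.p6 chrX:37085208-37085237, minus strand: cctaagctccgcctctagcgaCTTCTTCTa
Rplp2, GRCm38.p6 chr7:141447636-141447665, plus strand: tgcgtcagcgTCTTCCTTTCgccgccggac

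RefSeq gave such a window for 62 of the members. The longest run of C and T in it was at least 7 bases in 33 of the 62 (53.2%), against 21.3% of 27025 genes with such a window, and its median length was 7 bases against 5. For a gene with several RefSeq starts the window with the longest run was taken, in the members and in all genes alike. Only the gene's own strand was searched, and a run is a description of these letters, not a mapped mRNA start. Rps28, whose IP ratio was low, and Rps3a and Rpl5, whose IP ratios were high, had runs shorter than 7 bases. Of the genes shown above, only Rps28 did.

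In the inputs the 83 transcripts made up between 27.2% and 36.4% of all TPM in a library. Of the 50 most abundant genes by mean input level, 40 were members, and of the 100 most abundant, 67. Their median level was 3774 TPM, and 70 of them had a mean of 1000 TPM or more, whereas the median over the 11784 genes with a mean of at least 1 TPM was 13.04 TPM. The small subunit transcripts had a median of 4621 TPM and those of the large subunit 3167 TPM. Levels in TPM are per length and can be compared between genes.

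**Figure D1:**
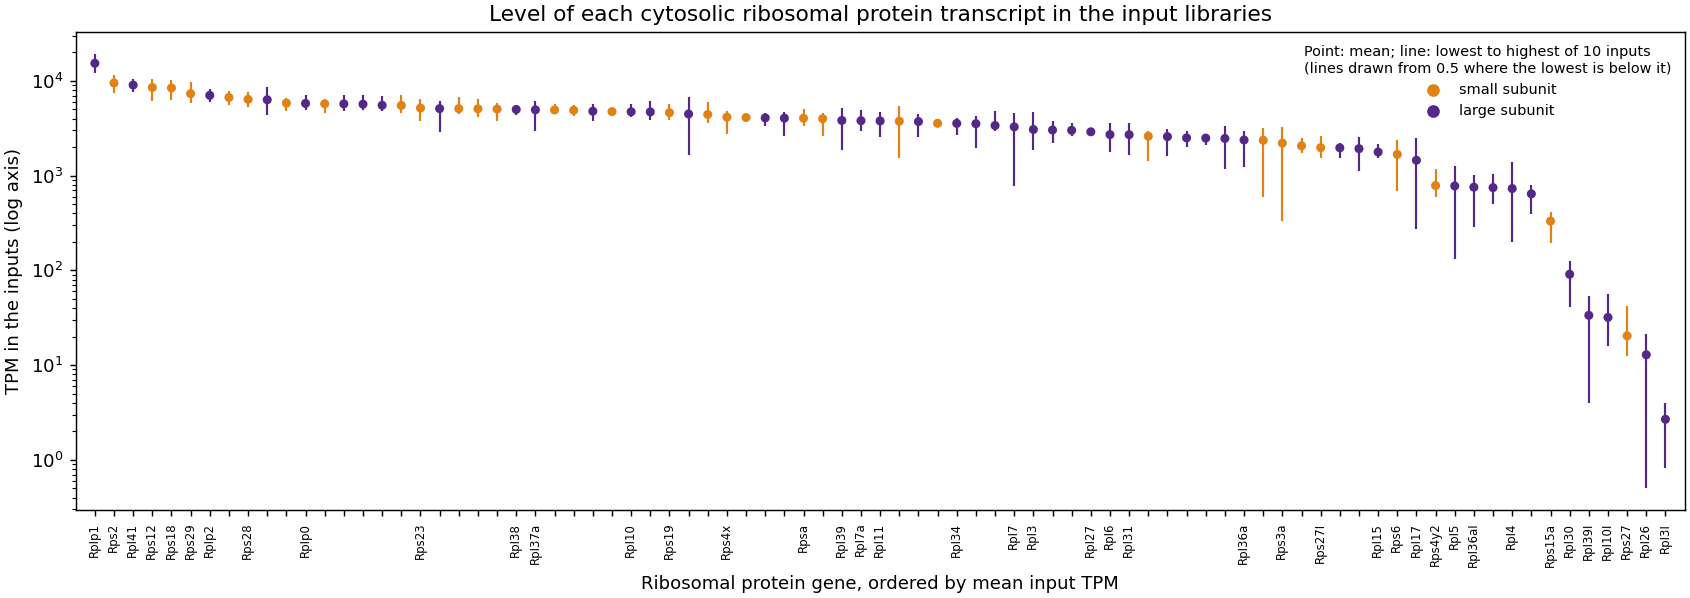
Level of each of the 83 ribosomal protein transcripts in the 10 input libraries, in TPM on a log axis, ordered by mean. Points are means, lines run from the lowest to the highest input, and colours separate the subunits. Of the means, 70 lie at 1000 TPM or more and 6 below 100 TPM. Names are given for the transcripts described in the text.

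The 5 most abundant were Rplp1, Rps2, Rpl41, Rps12 and Rps18. Rplp1, an acidic protein of the stalk that recruits translation factors, was the most abundant of all genes, at 15324 ± 2224 TPM (SD, n = 10 inputs) and from 12060.2 to 19209.8 TPM. Rps2, a protein near the entry of the mRNA channel, followed at 9493 ± 1392 TPM. Rpl41, the shortest ribosomal protein, reached 9031 ± 968 TPM, Rps12 8520.0 ± 1598 TPM and Rps18 8409.9 ± 1185 TPM. The last 4 overlapped one another over the inputs, and the lowest Rplp1 input lay above the highest input of each of them.

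At the other end, 6 transcripts had a mean below 100 TPM. Rpl3l, a paralogue of Rpl3 known from heart and skeletal muscle, was the lowest at 2.68 ± 0.96 TPM. Rpl26, Rps27 and Rpl30 also lay low, at 12.8 ± 7.73, 20.4 ± 9.77 and 90.9 ± 25.2 TPM, but each had a near-identical copy in the tables at a far higher level. The row Gm9846 was 100.0% identical to the coding sequence of Rps27 and held a mean of 6546 TPM in the inputs. Gm12191 was 99.7% identical to Rpl30 and held 3419 TPM, and Gm15772 was 99.5% identical to Rpl26 and held 3216 TPM. The authors' counting divides reads that map to several transcripts by a model, so the level of these 3 members, and of Rps15a (331 TPM beside 499 TPM for the copy Gm11968) and Rpl34 (3554 TPM beside 237 TPM for Rpl34-ps1), is uncertain.

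Across the 77 members at 100 TPM or more, the median coefficient of variation over the 10 inputs was 16.7%. It was highest for Rpl17 (47.5%), Rpl4 (47.4%), Rpl5 (46.9%), Rps3a (44.7%) and Rpl7 (38.9%). Replicate 2 gave the lowest of the 4 inputs in both the Tet2 and the Tet2ΔRBD line for 50 of the 83 members, these 5 included, and the highest in both for 5, such as Rpl10 and Rplp0. Rpl5, a 5S rRNA-binding protein, had 1201, 329, 699 and 734 TPM in Tet2 input and 1248, 131, 846 and 1153 TPM in Tet2ΔRBD input, in the order of the replicate numbers.

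The first question on the inputs was whether lines with and without the RBD of Tet2 differed in these transcripts. None of the 83 passed the threshold of an adjusted p below 0.05 between Tet2ΔRBD and Tet2 input (edgeR), where none of 13178 genes did (0.0% called). The median log2 difference of the members was -0.07 beside 0.05 over all genes tested. Counts at an unadjusted p are given here without the share of all genes at that p, and no difference is read from them. In edgeR 2 members had an unadjusted p below 0.05, with 2 by DESeq2 as well, and the 2 described next were picked by that p alone. Both were among the least expressed: Rpl39l, a testis paralogue of Rpl39, with 36.5, 25.8, 49.3 and 49.6 TPM in Tet2 input against 3.96, 10.1, 29.4 and 22.8 TPM in Tet2ΔRBD input (-1.32 ± 0.54 (SE, adjusted p = 1.0)), and Rpl3l (-1.03 ± 0.37 (SE, adjusted p = 1.0)). Within each replicate number both were lower in Tet2ΔRBD input, in 4 of 4, and the inputs of the 2 lines overlapped for Rpl39l but not for Rpl3l. With the replicate number as a block the adjusted p was 0.2 for Rpl39l and 0.162 for Rpl3l, none of the members passed, 4 had an unadjusted p below 0.05, and 5 of all genes passed.

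The second question on the inputs was whether the Tet1 line differed from the Tet2 line. It was asked within the set of libraries that the deposited numbering gives to both, with 2 inputs a line. In Tet1 input 45 members were lower and 5 higher, where 24.9% of 12999 genes were lower and 24.9% higher, and the median log2 difference of the members was -0.22 beside -0.02 over all genes. Lower transcripts belonged to both subunits, 24 of 33 in the small and 21 of 50 in the large subunit. All 5 higher ones were of the large subunit. Each line was 1 knock-in, so the tagged protein and other differences between the lines cannot be told apart. Without Tet1 replicate 1, Tet2 replicate 3 or Tet2 replicate 4, the count of 50 fell to 31, 25 and 28. Of these, 25, 23 and 27 were lower, where 17.7%, 16.4% and 16.6% of all genes were lower.

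The largest decrease was in Rpl37a, a zinc-finger protein of the large subunit, with 2979.5 and 3075 TPM in the Tet1 inputs, which fell below all 4 Tet2 inputs (5455, 4502, 6169.9 and 6082 TPM). Its fitted log2 difference was -1.13 ± 0.07 (SE, adjusted p = 2.21e-05). Rpl31 (-0.83), Rps27 (-0.78), Rps27l (-0.68) and Rps29 (-0.64) followed, with adjusted p of 7.26e-05, 0.00295, 0.000171 and 0.000285. The row of Rps27 held a mean of 20.4 TPM in the inputs beside 6546 TPM for its identical copy Gm9846, so its difference is uncertain. Rps27l is a paralogue of Rps27 that is also known as a p53 target. The largest increase was in Rpl10l, a retrogene copy of Rpl10 used in the male germ line, with 54.2 and 56.3 TPM in the Tet1 inputs and 27.8, 22.9, 28.9 and 33.2 TPM in the Tet2 inputs (0.72 ± 0.10 (SE, adjusted p = 0.000704)), and the groups did not overlap. Rpl3 (0.31), Rpl7a (0.23) and Rpl6 (0.19) were among the others that rose. These 3 lost their call without Tet2 replicate 4, and Rpl7a and Rpl6 also without Tet1 replicate 2 or Tet2 replicate 3.

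The share of all TPM taken by the 83 transcripts was then compared between IP and input. In the Tet1 line it was 30.4% and 30.6% in the inputs and 29.7% and 29.4% in the IPs. In the Tet2 line it was 36.4%, 27.3%, 33.4% and 33.4% in the inputs and 31.1%, 17.3%, 30.9% and 31.7% in the IPs. In the Tet2ΔRBD line it was 34.8%, 27.2%, 32.0% and 31.5% in the inputs and 31.2%, 29.0%, 28.7% and 28.9% in the IPs. The IP lay below its input in 9 of 10 pairs, and the exception was replicate 2 of Tet2ΔRBD. With 4 pairs at most, an exact test cannot reach the threshold, and none was made.

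**Figure D2:**
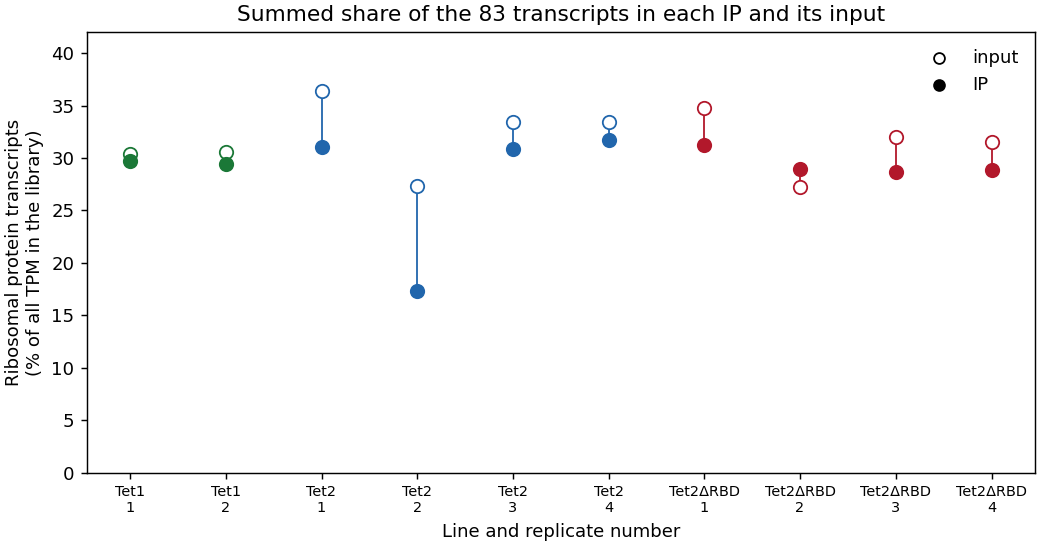
Share of all TPM held by the 83 ribosomal protein transcripts, in %, in each input (open) and its IP (filled), by line and replicate number. The IP lies below its input in 9 of the 10 pairs, by the most in Tet2 replicate 2 (27.3% to 17.3%), and above it in Tet2ΔRBD replicate 2 (27.2% to 29.0%).

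Per transcript, the median log2(IP/input) from TPM + 1 was -0.14 ± 0.02 in Tet1 (SD, n = 2 pairs), -0.33 ± 0.33 in Tet2 (n = 4) and -0.11 ± 0.14 in Tet2ΔRBD (n = 4). Without replicate 2 the last 2 were -0.17 and -0.18. Between 47 and 67 of the 83 members lay below input in 9 of the pairs, and 38 did in Tet2ΔRBD replicate 2, whereas the median gene with at least 1 TPM lay above input in every pair, by 0.01 to 0.38. In all 10 pairs, 31 members lay below input and 9 above it, and 6.48% and 22.7% of the 11784 genes did so. Among the 9 were Rpl3, Rpl4, Rpl5, Rpl7, Rps3a and Rps6.

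The fitted ratios use TMM scaling, which holds the median gene near 0 (-0.04 in Tet1, 0.00 in Tet2 and -0.02 in Tet2ΔRBD), whereas on the TPM scale, fitted with limma, it sat at 0.08, 0.23 and 0.19. Fitted ratios are therefore lower than those from TPM, and both are to be read relative to their median gene. In the fit with edgeR, 47 members were lower in Tet2 IP than in input and 1 higher, where 18.5% of 13710 genes were lower and 14.6% higher. In Tet2ΔRBD, 27 were lower and 1 higher, beside 12.1% and 7.4% of all genes. In Tet1, with 2 pairs, none was lower and 2 were higher, beside 3.18% and 2.72% of all genes. DESeq2 called 4 members lower in Tet1, beside 5.38% of all genes, so the members did not stand out there. At an unadjusted p below 0.05 in edgeR, 19 members lay below input in Tet1, and the share of all genes at that p is not given here. The median fitted ratios were -0.28 in Tet1, -0.65 in Tet2 and -0.38 in Tet2ΔRBD. Of the 27 called lower in Tet2ΔRBD, 26 were among the 47 of Tet2.

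These counts depended on the pairing and on single libraries, and the calls over all genes moved with them. When IP and input were not paired, 7 members were lower and 1 higher in Tet2, beside 1.85% and 0.883% of all genes. Unpaired, 1 member was lower in Tet2ΔRBD, beside 0.299% of all genes, and no member and no other gene passed in Tet1, where 3 members had an unadjusted p below 0.05. Without replicate 2 of both lines 50 were lower and 5 higher in Tet2, where 20.9% and 17.3% of all genes were, and 51 lower and 3 higher in Tet2ΔRBD, where 17.5% and 13.3% were.

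The 27 members lower in Tet2ΔRBD fell to 6 without its replicate 1, to 4 without replicate 3 and to 17 without replicate 4, where 6.38%, 4.3% and 8.97% of all genes were lower. Replicates 3 and 4 came from one library set and were far more alike than other pairs of the same group, with a chi-square per member of 21.2 to 181 against 874 or more in the groups of 4. With these 2 merged, 7 members were lower in Tet2ΔRBD and 43 in Tet2, beside 4.67% and 14.2% of all genes. The 2 calls in Tet1 fell to 0 without either replicate, as did those of all genes. Fitted on the Tet1 libraries alone, 45 members were lower and 12 higher in Tet1, where 26.7% and 28.4% of 12691 genes were, whereas in the fit over all lines none was lower.

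**Figure D3:**
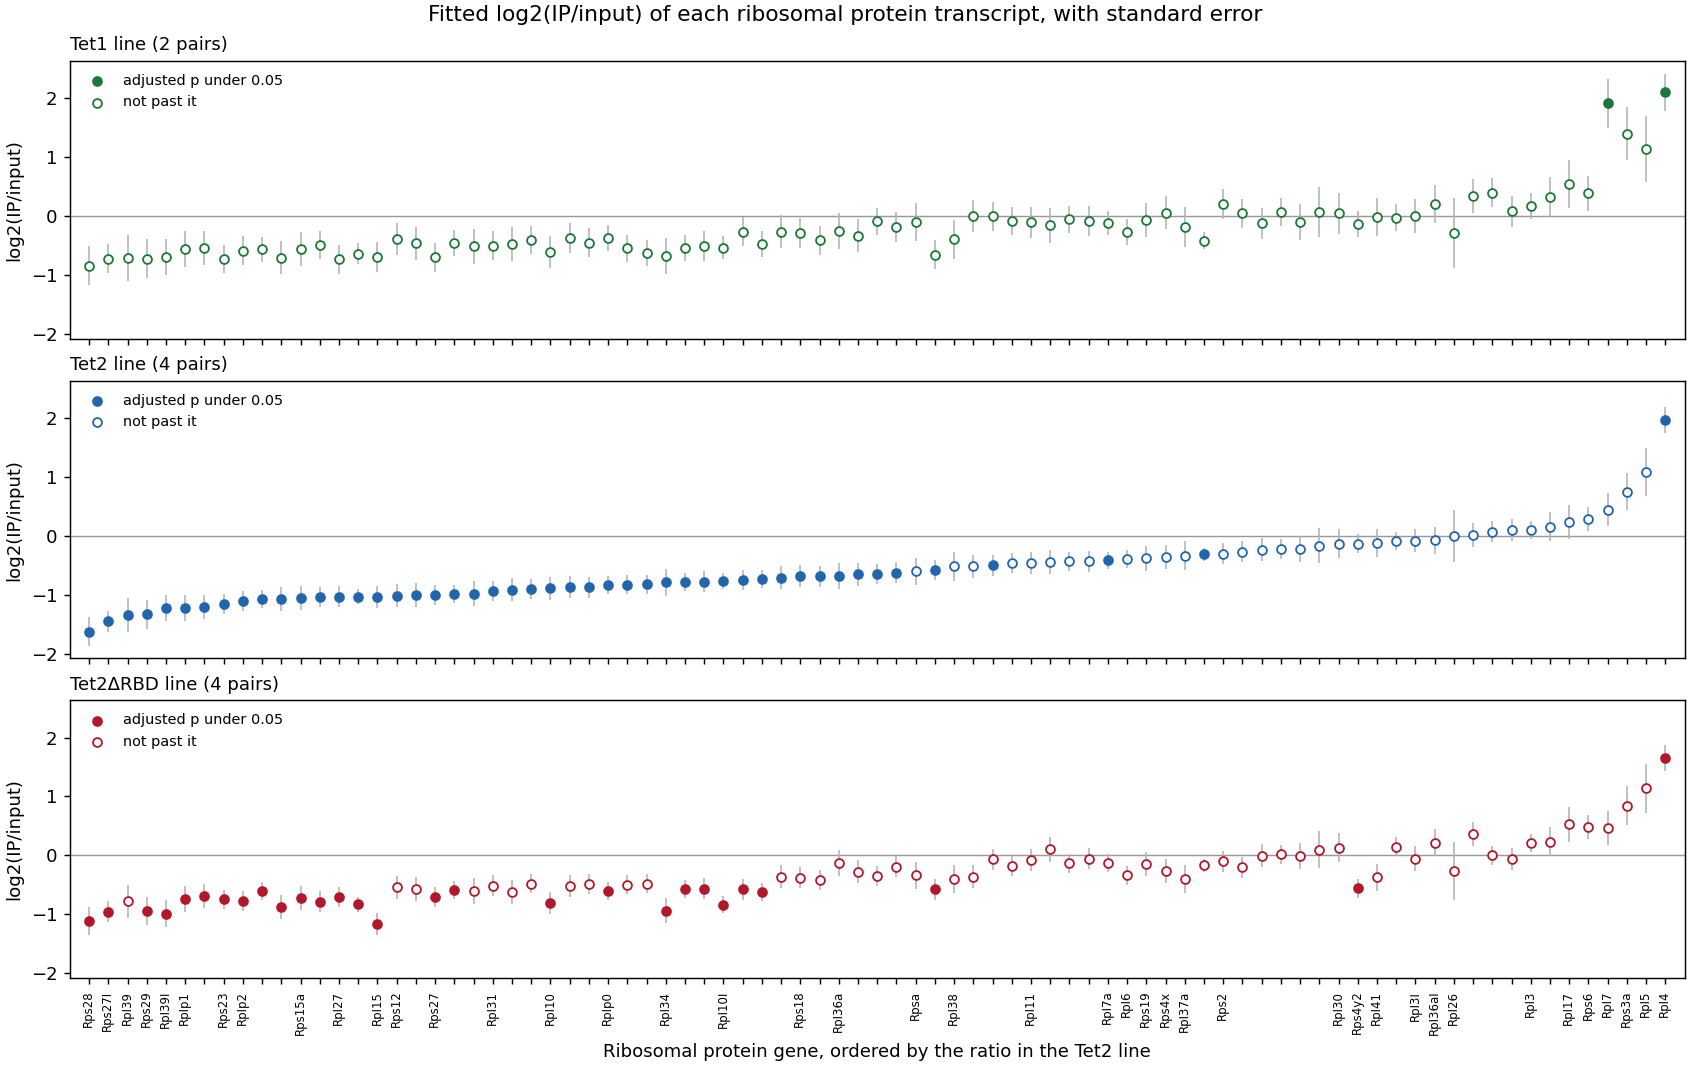
Fitted log2(IP/input) of each of the 83 transcripts in the 3 lines, with standard errors, ordered by the ratio in Tet2. Filled points passed an adjusted p below 0.05 (edgeR). From Rps28 at the left to Rpl4 at the right, the Tet2 ratio runs from -1.62 to 1.97, and the other lines follow a similar order over a narrower range below 0. Names are given for the transcripts described in the text.

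By subunit, 22 of 33 small subunit transcripts and 25 of 50 large subunit transcripts were lower in Tet2 IP, with medians of -0.75 and -0.51. In Tet2ΔRBD these were 14 and 13, with medians of -0.54 and -0.31, and in Tet1 the medians were -0.41 and -0.18. The difference between the subunits was not tested. Across the 83 members the fitted ratios of the lines ran in a similar order, with Spearman rho of 0.91 for Tet1 and Tet2, 0.92 for Tet1 and Tet2ΔRBD and 0.91 for Tet2 and Tet2ΔRBD, a description over genes that share a length and library preparation in every line.

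The lowest ratio of Tet1 and Tet2 belonged to Rps28, a small protein near the mRNA exit of the small subunit. It had 6995, 5269, 7655 and 7341 TPM in Tet2 input and 2769, 1275, 3854 and 3987 TPM in Tet2 IP. Every Tet2 IP lay below every Tet2 input. In Tet2ΔRBD it had 6317, 5321, 6875 and 6399.8 TPM in input and 2962, 4331, 3389.8 and 3415 TPM in IP, and in Tet1 5764 and 5812 TPM in input and 3708 and 3448 TPM in IP, again with no overlap. Its fitted log2(IP/input) was -1.62 ± 0.24 (SE, adjusted p = 0.000888) in Tet2, -1.11 ± 0.24 (SE, adjusted p = 0.0109) in Tet2ΔRBD and -0.84 ± 0.33 (SE, adjusted p = 0.152) in Tet1.

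Rps27l, Rpl39 and Rps29 made up the 4 lowest of the Tet2 line with Rps28. Rps29, a zinc-binding protein of the small subunit head, had 6295, 6356, 9703 and 9371 TPM in Tet2 input and 3320.0, 1659, 5946 and 6452 TPM in Tet2 IP, which overlapped only through IP replicate 4. Its ratio was -1.33 ± 0.24 (SE, adjusted p = 0.00275) in Tet2 and -0.94 ± 0.24 (SE, adjusted p = 0.0208) in Tet2ΔRBD. Rps27l had 1554, 1544, 2645 and 2552 TPM in Tet2 input and 722, 499, 1384 and 1404 TPM in Tet2 IP, with no overlap and a ratio of -1.45 ± 0.18 (SE, adjusted p = 0.000373). Rpl39, which lines the peptide exit tunnel, had 3703, 1978, 5170.4 and 5013 TPM in Tet2 input and 2097, 591, 2885 and 3036 TPM in Tet2 IP, with overlap. Its ratio was -1.34 ± 0.28 (SE, adjusted p = 0.00537) in Tet2, and in Tet2ΔRBD, where replicate 2 had 1884 TPM in input and 2758 TPM in IP, -0.78 ± 0.28 (SE, adjusted p = 0.0761). Without replicate 2 of both lines it was -1.05 in Tet2 and -1.14 in Tet2ΔRBD, with adjusted p of 0.000127 and 0.000209.

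In Tet2ΔRBD the lowest was Rpl15, a core protein of the large subunit, with 2056, 2003, 1642 and 1534 TPM in input and 1107, 1062, 856 and 882 TPM in IP. The groups did not overlap, and replicate 2 did not stand apart. Its ratio was -1.16 ± 0.18 (SE, adjusted p = 0.00267) in Tet2ΔRBD, -1.03 ± 0.19 (SE, adjusted p = 0.00259) in Tet2 and -0.69 ± 0.26 (SE, adjusted p = 0.136) in Tet1. Rpl39l (-0.98) and Rps27l (-0.96) were also among the 4 lowest there and passed. In Tet1 the 4 lowest were Rps28, Rps23 (-0.73), Rpl27 (-0.73) and Rps29 (-0.72), none of which passed, with adjusted p of 0.152, 0.0919, 0.102 and 0.219.

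At the upper end stood Rpl4, a long protein that reaches into the exit tunnel and the one member higher than input at the threshold in all 3 lines. It had 741 and 575 TPM in Tet1 input and 2934 and 3279.9 TPM in Tet1 IP. In Tet2 it rose from 1011, 436, 539.8 and 628 to 4987, 3295, 2341 and 2204 TPM, and the groups did not overlap. In Tet2ΔRBD it had 1097, 199.7, 691 and 1381 TPM in input and 5697, 983, 2749.8 and 2797 TPM in IP, which overlapped. The fitted log2(IP/input) was 2.10 ± 0.32 (SE, adjusted p = 0.0186) in Tet1, 1.97 ± 0.22 (SE, adjusted p = 0.000247) in Tet2 and 1.65 ± 0.22 (SE, adjusted p = 0.00123) in Tet2ΔRBD. Unpaired, its adjusted p was 0.584 in Tet1 and 0.205 in Tet2ΔRBD.

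Rpl5, Rps3a and Rpl7 completed the 4 highest in Tet1 and in Tet2. In Tet2ΔRBD Rpl17, a protein near the exit tunnel, was the fourth in place of Rpl7, at 0.53 ± 0.30 (SE, adjusted p = 0.228), and at 0.09 without replicate 2 of both lines. Rpl5, which with Rpl11 and 5S rRNA can hold back Mdm2, had 2255, 2098, 1469.9 and 1463 TPM in Tet2 IP and 2484, 1204, 1744 and 1818 TPM in Tet2ΔRBD IP, above its paired input every time, with ratios of 1.14 ± 0.56 (SE, adjusted p = 0.251), 1.08 ± 0.40 (SE, adjusted p = 0.0599) and 1.14 ± 0.42 (SE, adjusted p = 0.0771) in Tet1, Tet2 and Tet2ΔRBD. It passed in none of the 3, and without replicate 2 of both lines the ratios were 0.73 in Tet2 and 0.59 in Tet2ΔRBD, with adjusted p of 0.000951 and 0.00383. Rps3a, which lies near the site of mRNA exit, had ratios of 1.39 ± 0.45 (SE, adjusted p = 0.0919), 0.74 ± 0.31 (SE, adjusted p = 0.0893) and 0.85 ± 0.33 (SE, adjusted p = 0.0921) and passed in none, but did without replicate 2 of both lines, at 0.75 in Tet2 and 0.34 in Tet2ΔRBD. Its input of replicate 2 in Tet2ΔRBD, 332 TPM, was the lowest of all 10.

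**Figure D4:**
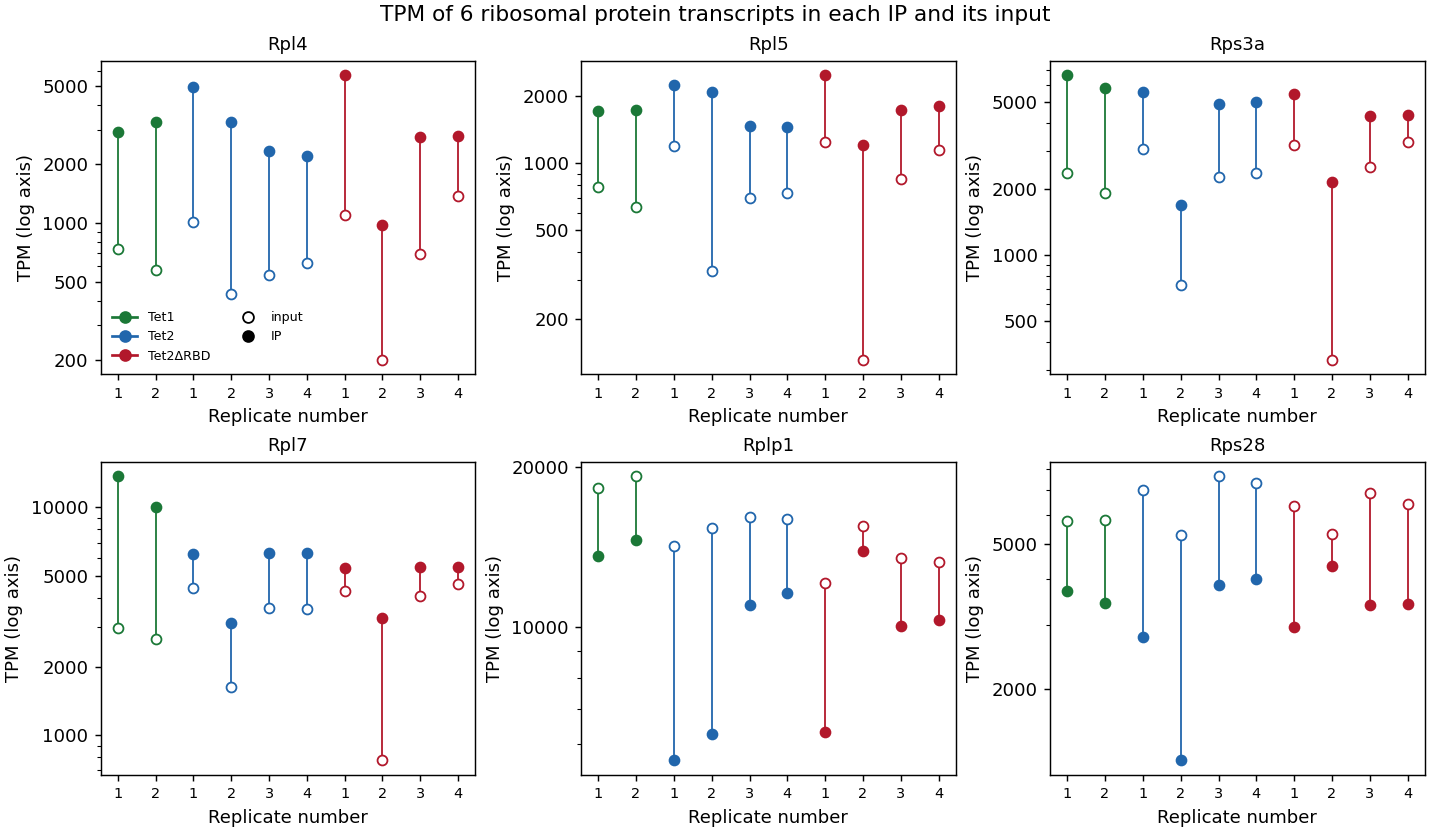
TPM, on a log axis, of 6 ribosomal protein transcripts in each input (open) and its IP (filled), by replicate number, with a colour for each line. Rpl4, Rpl5, Rps3a and Rpl7 lie above input in all 10 pairs, and Rplp1 and Rps28 below it in all 10. The low inputs of replicate 2 stand out for the first 4.

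Rplp0, Rplp1 and Rplp2 together form the ribosomal stalk, and each fell in both Tet2 lines. Rplp1 had 14150.5, 15346, 16076 and 15967 TPM in Tet2 input and 5597, 6284, 10992 and 11583 TPM in Tet2 IP, with no overlap and a ratio of -1.23 ± 0.22 (SE, adjusted p = 0.00261), and -0.74 ± 0.22 (SE, adjusted p = 0.0369) in Tet2ΔRBD. Rplp2 had a ratio of -1.10 ± 0.17 (SE, adjusted p = 0.0012) in Tet2 and -0.77 ± 0.17 (SE, adjusted p = 0.0129) in Tet2ΔRBD. Rplp0 had -0.83 ± 0.16 (SE, adjusted p = 0.00314) and -0.61 ± 0.15 (SE, adjusted p = 0.0219). In Tet1 the 3 ratios were -0.37, -0.56 and -0.58, below input in both pairs, and none passed.

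Rps6, Rps19, Rpl38, Rpl11 and Rpsa are named for known roles in regulation or disease, and none of these 5 passed in the IP ratio of any line. Rps6, the target of S6 kinase, lay above input in all 10 pairs, with 2339.8, 1069, 1558 and 1651 TPM in Tet2 input and 2555, 2199, 2475 and 2450.4 TPM in Tet2 IP, and ratios of 0.39, 0.28 and 0.48 in Tet1, Tet2 and Tet2ΔRBD. Rps19, mutated in Diamond-Blackfan anaemia, had ratios of -0.07, -0.39 and -0.14. Rpl38, linked to translation of Hox mRNAs, had -0.39, -0.52 and -0.40, and Rpl11 had -0.10, -0.46 and -0.08. Rpsa, which also serves as a laminin receptor, had -0.10, -0.60 and -0.34. The adjusted p of these 5 ran from 0.0658 to 0.918. Rpl38 passed in Tet2ΔRBD without replicate 2 of both lines, at -0.55 with an adjusted p of 0.00303.

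Some ribosomal proteins have a paralogue, often used in one tissue. Rpl10 exceeded Rpl10l in input, at 4716 ± 447 against 31.9 ± 13.2 TPM, and both fell in Tet2 (-0.89 and -0.77) and in Tet2ΔRBD (-0.80 and -0.84). Rpl39 exceeded Rpl39l, at 3818 ± 1138 against 33.5 ± 18.1 TPM. Rpl36a stood at 2376 ± 561 TPM and Rpl36al at 754 ± 239 TPM, and in Tet2 the first fell (-0.68 ± 0.22 (SE, adjusted p = 0.0358)) whereas the second had a ratio of -0.08 ± 0.23 (SE, adjusted p = 0.813). That these 2 differ was not tested. Rpl36a also passed in Tet2ΔRBD without replicate 2 of both lines, at -0.39 with an adjusted p of 0.0201.

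Rps4x, the X-linked form, stood at 4139.9 ± 678 TPM and did not pass in any line. Rps4y2, an older name for a row that RefSeq calls Rps4l and lists as a transcribed pseudogene, stood at 785 ± 174 TPM and fell in Tet2ΔRBD (-0.56 ± 0.16 (SE, adjusted p = 0.033)), with a Tet2 ratio of -0.13 ± 0.16 (SE, adjusted p = 0.552). It was the one transcript called lower in Tet2ΔRBD and not in Tet2, and the difference itself, Tet2 minus Tet2ΔRBD, was 0.43 ± 0.22 (SE, adjusted p = 1.0). Rps27l was the expressed form of its pair as counted, at 1972 ± 430.1 TPM, but the copy Gm9846 holds most reads of the Rps27 sequence. The log2(IP/input) of Rps27 and that copy summed was -0.51 ± 0.01 in Tet1 (SD, n = 2), -0.72 ± 0.57 in Tet2 (n = 4) and -0.09 ± 0.39 in Tet2ΔRBD (n = 4) from TPM. Over the 3 pairs other than replicate 2 the sum had -0.44 ± 0.14 (SD) in Tet2 and -0.26 ± 0.21 (SD) in Tet2ΔRBD. Rpl3 lay above input in all 10 pairs, with fitted ratios of 0.17, 0.10 and 0.21, and Rpl3l was too low to rank.

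Whether the RBD of Tet2 changed the recovery of these transcripts was tested in the same fit, by subtracting the log2(IP/input) of Tet2ΔRBD from that of Tet2. No member passed, where 0 of 13710 genes were lower and 3 higher (0.0219%), and no member had an unadjusted p below 0.05 in edgeR, with 3 in DESeq2. The median difference was -0.27 beside -0.01 over all genes, with 73 of 83 below 0, and single differences ran from -0.57 to 0.43 with a median standard error of 0.27. The fit therefore leaves room for differences of this size in single transcripts. The median difference was 0.02 without replicate 2 of both lines, and -0.27 with the replicates matched between the lines. In the fit without replicate 2, 8 members had an unadjusted p below 0.05 (edgeR). All 8 had a higher ratio in Tet2 than in Tet2ΔRBD, up to 0.74 for Rpl41, in a fit whose median difference was 0.02. The share of all genes at that p is not given here, and no direction is read from these 8. None of them passed, where 0.0% of all genes were lower and 0.125% higher. For the 3 lowest and the highest of the Tet2 line, the differences were -0.52 for Rps28, -0.49 for Rps27l, -0.56 for Rpl39 and 0.32 for Rpl4, each with an adjusted p of 1.0. The difference of Rpl39 was 0.09 without replicate 2 of both lines.

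Tet1 and Tet2 were compared over the set of libraries they share, with 2 pairs a line. The IPs of this set were alike too, with a chi-square per member of 167 in Tet1 and 59.2 in Tet2, against 2180 or more between other Tet2 IPs. The spread behind these p-values may therefore be technical. The median difference of the members, Tet1 minus Tet2, was 0.06 beside -0.04 over all genes, and 1 member of 83 passed, where 1.21% of 13379 genes were lower and 1.14% higher in Tet1. This was Rpl7, a protein of the large subunit that binds RNA. It had 2969.5 and 2656 TPM in Tet1 input and 13752 and 10007 TPM in Tet1 IP, against 4421, 1629, 3624 and 3589.8 TPM in Tet2 input and 6243, 3096, 6335 and 6328 TPM in Tet2 IP. Both Tet1 IPs lay above all Tet2 IPs. The difference was 1.27 ± 0.13 (SE, adjusted p = 0.00157), and the ratio in each line was 1.91 ± 0.41 (SE, adjusted p = 0.0307) in Tet1, 0.45 ± 0.28 (SE, adjusted p = 0.246) in Tet2 and 0.47 ± 0.29 (SE, adjusted p = 0.279) in Tet2ΔRBD. Without replicate 2 of both lines the Tet2 ratio was 0.45 and the Tet2ΔRBD ratio 0.02, with adjusted p of 0.0224 and 0.908. The call was lost without Tet2 replicate 3 or Tet2 replicate 4, at adjusted p of 0.0606 and 0.079, and over all library sets, at 0.94. Rps3a was the next, at 0.48 ± 0.11 (SE, adjusted p = 0.0537).

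The members share a property that varied with the ratio in all genes, their length. The median length in the deposited tables was 710 bases for the members and 2738 bases for all genes tested. Among the other genes tested, those under 600 bases had a median log2(IP/input) of -0.77 in Tet2, -0.51 in Tet2ΔRBD and -0.44 in Tet1, and the 33 members under 600 bases had -0.87, -0.52 and -0.45. In Tet2, 56.8% of the 243 other genes of that length were lower, and so were 23 of the 33 members. From 600 to under 1000 bases the medians in Tet2 were -0.50 for 780 other genes and -0.43 for 31 members, and from 1000 to under 2000 bases -0.20 for 3268 other genes and -0.52 for 16 members. The part of length in the ratio was not tested.

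**Figure D5:**
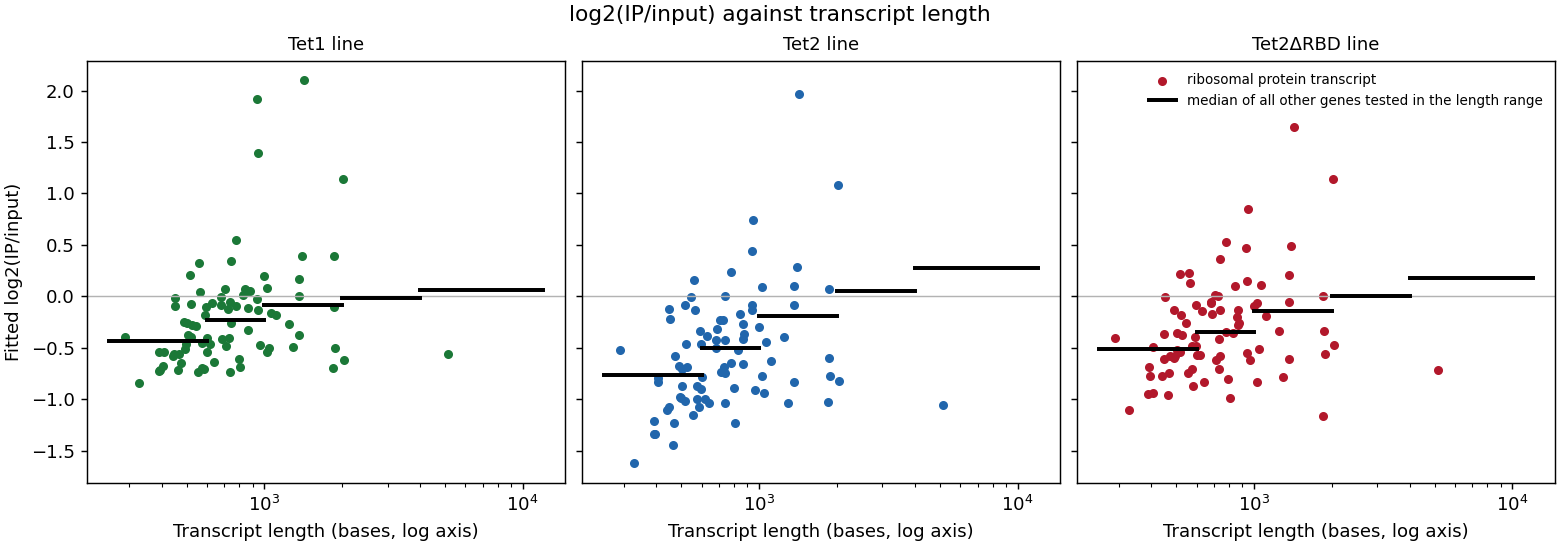
Fitted log2(IP/input) of each ribosomal protein transcript (points) against transcript length on a log axis, with the median of all other genes tested in 5 length ranges (bars), for the 3 lines. Medians of other genes rise with length in every line, from -0.77 under 600 bases to 0.28 at 4000 bases or more in Tet2. Rpl4, Rpl5, Rps3a and, in Tet1, Rpl7 stand above the rest.

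Within the members, the ratio followed the coding length more than the whole length. Spearman rho across 82 members with a coding sequence in the annotation was 0.57 in Tet1, 0.54 in Tet2 and 0.42 in Tet2ΔRBD for coding length, and 0.38, 0.38 and 0.32 across 83 for whole length. The 10 members with a coding sequence under 300 bases had a median of -1.22 in Tet2 and 8 of them were lower, the 47 of 300 to under 600 bases had -0.71 and 31 were lower, and the 25 of 600 bases or more had -0.30 and 8 were lower. Of all genes tested, 18.5% were lower in Tet2. For mean input level rho was -0.19, -0.33 and -0.26, and for GC content of the coding sequence -0.06, -0.13 and -0.19. These correlations run over genes of the same libraries, which are not independent replicates.

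Of the 82 members placed in the annotation (gencode vM1, NCBIM37, that is mm9), 30 held an annotated snoRNA. Their median ratio in Tet2 was -0.62 and 16 were lower, and the other 52 had -0.69 with 31 lower. Of all genes tested, 18.5% were lower in Tet2. Rpl4 (chr9:64021194-64026369) held 5 snoRNAs and Rpl5 (chr5:108329521-108338024) 3, whereas Rpl7 (chr1:16091376-16094743) and Rps28 (chr17:33955972-33961507) held none. Members with a pyrimidine run of at least 7 bases in the window shown above had a median of -0.69 in Tet2, with 21 of 33 lower, and those with a shorter run -0.50, with 14 of 29 lower.

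Other gene lists are given for comparison by their counts and medians. Over all genes tested, 18.5% were lower and 14.6% higher in Tet2, with a median ratio of 0.00 and a median length of 2738 bases. Of 20 other transcripts known to carry a TOP sequence, such as elongation factors, 4 were lower and 1 higher in Tet2, with a median ratio of -0.06 and a median length of 1553 bases. Of 76 mitochondrial ribosomal protein transcripts, with a median length of 1043 bases, 38 were lower and 1 higher, with a median of -0.41. Of 47 proteasome subunit transcripts tested, 16 were lower and 3 higher, with a median of -0.21. In Tet2ΔRBD the medians of these lists were -0.03, -0.24 and -0.13, and in Tet1 0.15, -0.18 and -0.13. None of the differences between lists was tested.

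Ratios of nuclear noncoding RNAs lay on both sides of 0. The 5 tested had ratios from -1.02 to 2.21 in Tet2, from -0.88 to 1.09 in Tet2ΔRBD and from -0.83 to 2.75 in Tet1, with 1 lower in each of the Tet2 lines, none lower in Tet1 and none higher in any. The lowest in Tet2 was Neat1, a paraspeckle RNA (-1.02 ± 0.35, SE, adjusted p = 0.044). Fau, which encodes ribosomal protein S30 fused to a ubiquitin-like protein, stood at 2743 TPM in input and had a Tet2 ratio of -0.17 ± 0.18 (adjusted p = 0.484). Gnb2l1 stood at 4061 TPM, with -0.43 ± 0.20 in Tet2 (adjusted p = 0.117).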

How the data were processed

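RIP-Seq libraries of 3 knock-in ESC lines were analysed, 20 in all. The authors trimmed the reads, removed those of rRNA and tRNA with Bowtie2 and assigned the rest with RSEM to the RefSeq transcriptome of mm9. The deposited expected counts per gene are not normalized, and the deposited TPM values carry a pseudocount of 1, which was subtracted. Reads of near-identical genes are divided by RSEM's model, and samples were grouped by their labels. Expected counts were rounded and fitted over all 20 libraries with edgeR 4.0.16 (R 4.3.3; TMM, quasi-likelihood, at least 1 CPM in 2 libraries), with a block for each pair of IP and input and an IP effect for each line, leaving 7 residual degrees of freedom. P-values were adjusted over all genes (Benjamini-Hochberg, threshold 0.05). Standard errors were taken from each log2 ratio and its F statistic. Tet1 against Tet2 used the library set they share, and inputs were compared without a block. IP and input of one number were paired by the labels: their deviations from the group means correlated at 0.58 to 0.86 in the Tet2 and Tet2ΔRBD lines and at 0.18 in Tet1. Input numbers matched between these 2 lines at 0.69 to 0.88. Named members were the 5 highest and 3 lowest in input, the 4 highest and 4 lowest ratios of each line, at most 5 called members in each direction otherwise, and members fixed by role or as paralogues. The members and lists were chosen with earlier results of these data known. Alternatives used DESeq2 1.42.0 and limma 3.58.1. Methods were tested on simulated data. Plots used matplotlib 3.10.9, and copies were matched with BLAST 2.17.0. Some genes are not reported by name here.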

Additional observations from a re-analysis of the deposited data

Results flagged for a closer look

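In groups of 4 libraries or pairs, 7 values stood farther from the rest than Dixon's 95% limit, among 22 groups examined. Among independent groups chance flags about 1 in 20, but these groups share libraries and some hold transcripts named for their ratios. The 7 flags are therefore not to be counted against that rate. The members' share of TPM in Tet2 IP was 17.3% in replicate 2 against 30.9% to 31.7% in the others, and in Tet2ΔRBD IP it was 31.2% in replicate 1 against 28.7% to 29.0%. The median log2(IP/input) of the members in Tet2ΔRBD was 0.093 in replicate 2 against -0.203 to -0.159 in the others. Single transcripts stood apart in replicate 2 as well, Rpl39 in Tet2 at -1.741, Rpl5 at 2.668 in Tet2 and at 3.19 in Tet2ΔRBD, and Rps3a at 2.69 in Tet2ΔRBD, all as log2(IP/input) from TPM + 1. Over all 83 members, replicate 2 gave the lowest ratio of the 4 pairs for 59 in Tet2 and 9 in Tet2ΔRBD, and the highest for 16 and 53. Replicate 2 is also the one replicate of its library set in each line, and so is replicate 1, so for both the set and the replicate cannot be told apart.

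The IP effect of Rpl7 differed between Tet1 and Tet2 by 1.275 on the log2 scale in the test of the difference itself (edgeR, adjusted p = 0.00157). The call was kept in 8 of the alternatives and lost in 4, the fit over all library sets among them. Rpl7 was above input in 2 of 2 Tet1 pairs and 4 of 4 Tet2 pairs, of which 2 Tet2 pairs entered the test.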

How the results depend on the processing

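Counts of members called moved with the processing as follows, and the cause was not tested. The share of all genes called moved too, so each count is to be read beside that share. Without a replicate block, the counts were 0 in Tet1 (2 with it), 8 in Tet2 (48), 1 in Tet2ΔRBD (28) and 2 for Tet1 minus Tet2 (1). Of all genes 0.0%, 1.85%, 0.299% and 0.822% were then lower, and 0.0%, 0.883%, 0.0365% and 0.441% higher. A replicate block matched between the lines gave 0 members for the RBD difference, and a replicate block gave 0 for Tet2ΔRBD against Tet2 input. DESeq2 called 6 in Tet1 and 8 for Tet1 minus Tet2, where library totals gave 4, TMM without the members 3, no filter 4, limma with a pseudocount of 0.1 TPM 0 and all library sets 0. Of all genes, DESeq2 called 5.38% lower and 6.13% higher in Tet1. For Tet1 minus Tet2 it called 0.897% and 1.37% of all genes. Library totals called 1.61% and 0.837%, TMM without the members 0.852% and 1.4%, and no filter 1.21% and 0.902%. Fitted on its own line, Tet1 gave 57, of which 45 were lower and 12 higher, beside 26.7% and 28.4% of all genes. That fit rests on 2 pairs that were much alike and leaves few residual degrees of freedom. With replicates 3 and 4 merged, Tet1 gave 1 and Tet2ΔRBD 8, of which 7 were lower. Of all genes, 0.955% were then lower and 1.37% higher in Tet1, and 4.67% and 3.12% in Tet2ΔRBD. Without replicate 2 of both lines, an alternative chosen after seeing the data, Tet2ΔRBD gave 54, where 17.5% of all genes were lower and 13.3% higher. For Tet1 against Tet2 input (50), limma gave 30 with a pseudocount of 1 TPM and 27 with 0.1. Of all genes, 18.9% were lower and 30.5% higher with the first, and 18.4% and 29.5% with the second. Leaving out 1 replicate at a time gave 0 to 0 in Tet1, 39 to 47 in Tet2, 5 to 32 in Tet2ΔRBD, 0 to 1 for Tet1 minus Tet2 and 25 to 41 for Tet1 against Tet2 input, and 0 throughout for the RBD difference and for Tet2ΔRBD against Tet2 input. With 1 replicate left out, between 10.8% and 15.6% of all genes were lower in Tet2 and between 8.99% and 11.5% higher. In Tet2ΔRBD between 4.3% and 11.8% were lower and between 1.51% and 8.96% higher. Centred on the median expressed gene, the median log2(IP/input) from TPM was -0.223 in Tet1, -0.564 in Tet2 and -0.290 in Tet2ΔRBD. On the TPM scale limma called 36 members lower and 6 higher in Tet2, and 17 and 8 in Tet2ΔRBD, where 8.21% and 34.8%, and 4.55% and 23.3%, of all genes were. Of 424 values of single named members under the alternatives, 358 kept their side of the threshold, 33 lost it, 33 gained it and 0 changed direction. Replicates 3 and 4 differed by more than counting noise and were kept apart, although they were far more alike than the other pairs of their groups, and members at low counts, Rpl3l and Rpl26, have wide errors.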
